A study of Mus musculus with 12 samples.

Results

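The genes described here are 41 erythroid genes, which encode the globins, the enzymes and carriers of heme synthesis, the surface and skeleton proteins of the red cell membrane, and regulators of erythroid development. They were chosen by symbol as genes of red cell precursors, and each of the 41 symbols matched 1 row among the 56953 genes of the count and TPM tables (TPM is a transcript level corrected for gene length and scaled to the same sum in each library). By role they are 4 globins, 9 genes of heme synthesis, 13 of the red cell membrane, 6 erythroid regulators, 3 red cell enzymes and 6 other erythroid proteins. From textbook knowledge, 20 of them were listed as restricted to erythroid cells within the marrow and 21 as also used by other cells. Gata1 is among the 20, although megakaryocytes, eosinophils and mast cells also use it.

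The study asked how bone marrow macrophages of embryonic origin differ from those that descend from adult stem cells, and sequenced RNA of sorted myeloid cells from the marrow of female C57BL/6J mice aged 8 weeks. The macrophages came from mice of the genotype Rank cre/+;R26.eYFP fl/+, in which Cre recombinase made from the Rank locus switches on a yellow fluorescent protein in cells of the embryonic lineage. The 12 libraries form 4 groups of 3, namely eYFP+ macrophages (embryonic), eYFP- macrophages (adult-derived), and monocytes with high (Ly6Chi) or low (Ly6Clo) surface levels of Ly6C. Origin is thus known only through the reporter, and the genotype of the mice that gave the monocytes is not stated. Macrophages were enriched with antibodies against F4/80 before sorting, and the gate held CD45+ F4/80 high cells that carry VCAM1 and CD206. The antibodies described for this gate include none against a red cell antigen. The labels do not say whether the 3 libraries of a group came from separate mice, so p-values measure the spread between these libraries, which may be technical.

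Red cells arise in the marrow in erythroblastic islands, in which erythroblasts divide and mature while attached to a central macrophage. That macrophage holds the erythroblasts through adhesion molecules such as VCAM1, engulfs the nuclei they expel, and recycles iron from the heme of aged red cells. In maturing erythroblasts GATA1, TAL1 and KLF1 switch on the globin genes, the heme pathway and the membrane proteins, and globin messenger RNA builds up to a large share of all transcripts. In a bulk library the RNA of an engulfed or attached erythroblast is counted together with that of the macrophage.

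Depth ran from 26390927 to 48618187 counts per library. Of 8 macrophage identity genes, 8 were higher in both macrophage groups than in monocytes (DESeq2, adjusted p under 0.05). Of all genes tested 16.5% were higher in eYFP+ and 17.7% in eYFP- macrophages. Among the 8 is Adgre1, which encodes F4/80, an antigen of the gate itself, so that its difference follows from the sort. Ly6Clo replicate 2 was the shallowest library and stood apart, since 12 of the 41 erythroid genes had no count in it, against 1 in Ly6Clo replicate 3 and 0 in each of the other 10 libraries. Members whose call between the macrophage groups turned when it was left out are named beside their results.

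Erythroid transcripts were present in all 6 macrophage libraries above their level in monocytes, and were more abundant in eYFP- than in eYFP+ macrophages. The summed level of the 41 genes was 16005, 9846 and 11715 TPM in the eYFP+ libraries and 39061, 24679 and 34826 TPM in the eYFP- libraries. It was 1053, 1558 and 1239 TPM in Ly6Chi and 2002, 1070.0 and 1865 TPM in Ly6Clo monocytes. The macrophage groups did not overlap, and each macrophage library lay above each monocyte library. On average these genes held 1.25% of all TPM in eYFP+ macrophages, 3.29% in eYFP- macrophages, 0.128% in Ly6Chi and 0.165% in Ly6Clo monocytes. The mean was 2.62-fold higher in eYFP- than in eYFP+ macrophages. No test was made of this sum, since the genes were chosen with results of these data known.

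The 4 globins made up most of the sum, with a mean of 11027 ± 2830.0 TPM (SD, n = 3) in eYFP+ and 28893 ± 6478 TPM in eYFP- macrophages. The 16 other members listed as restricted to erythroid cells summed to 536, 275 and 366 TPM in eYFP+ libraries and to 1598, 1062 and 1405 TPM in eYFP- libraries, a ratio of means of 3.45. In the 6 monocyte libraries the same 16 genes summed to between 24.9 and 38.5 TPM. In both macrophage groups the library numbered 1 held the highest sum and the library numbered 2 the lowest.

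**Figure D1:**
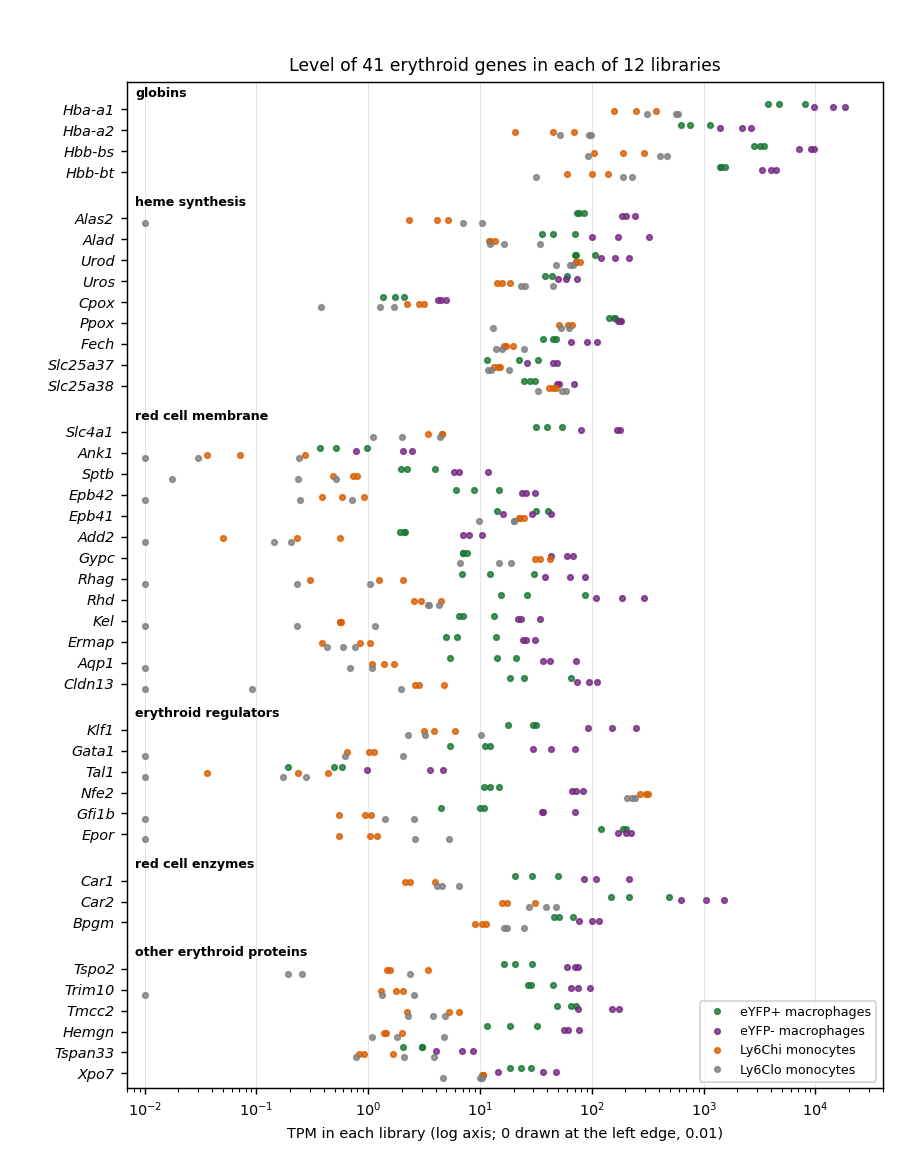
Level in TPM (log axis) of each of the 41 erythroid genes in each of the 12 libraries, grouped by role, with 1 point per library coloured by group and values of 0 drawn at the left edge. The globins lie between 631 and 18499 TPM in macrophages, Epor lies at 122 to 222 TPM in both macrophage groups, and Nfe2 has its highest values in monocytes.

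Globins carry oxygen in the red cell, and the 4 measured here are adult genes of the alpha chain (Hba-a1 and Hba-a2) and the beta chain (Hbb-bs and Hbb-bt). Hba-a1 (ENSMUSG00000069919) had the highest level of all members, at 8112, 3769.9 and 4759 TPM in eYFP+ macrophages and 18499, 9749 and 14389.8 TPM in eYFP- macrophages. In monocytes it was measured at 158, 372 and 250.3 TPM (Ly6Chi) and 590.0, 311 and 564 TPM (Ly6Clo). The macrophage groups did not overlap in TPM for Hba-a1, though they did in normalized counts, and each macrophage library lay above each monocyte library.

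Hba-a2 was measured at 1152, 631 and 748 TPM in eYFP+ macrophages, at 2646, 1409 and 2197 TPM in eYFP- macrophages, and at 20.6 to 98.4 TPM in monocytes. Hbb-bs reached 3451, 2848 and 3213 TPM in eYFP+ macrophages, 9052, 7204 and 9748 TPM in eYFP- macrophages, and 92.4 to 474 TPM in monocytes. Hbb-bt reached 1441, 1395 and 1559.6 TPM in eYFP+ macrophages, 4026, 3321 and 4439.9 TPM in eYFP- macrophages, and 31.5 to 227 TPM in monocytes. For both beta globins the eYFP+ libraries lay close to each other and far below the lowest eYFP- library, whereas the alpha globins spread more within each group. Only unambiguous read pairs were counted, and many 50-base windows of these transcripts also occur in the near-identical copy. The share was 72.3% for Hba-a1, 89.3% for Hba-a2, 53.2% for Hbb-bs and 58.3% for Hbb-bt, so that the split between copies is uncertain.

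None of the globins passed the test between the macrophage groups, although 4 of 4 had an unadjusted p under 0.05 in DESeq2. The log2 fold changes (eYFP+ minus eYFP-) were -1.32 ± 0.48 (SE) for Hba-a1, -1.27 ± 0.50 for Hba-a2, -1.42 ± 0.54 for Hbb-bs and -1.40 ± 0.56 for Hbb-bt, with DESeq2 adjusted p from 0.169 to 0.278. The spread behind these errors was estimated over all 12 libraries. Without Ly6Clo replicate 2, which is not in either group compared, the DESeq2 adjusted p was 0.0465 for Hba-a1, 0.0824 for Hba-a2, 0.00249 for Hbb-bs and 0.000396 for Hbb-bt.

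Against monocytes the 4 globins were higher in both macrophage groups. The log2 fold change over the mean of both monocyte groups ran from 3.52 (Hbb-bt) to 3.92 (Hba-a1) in eYFP+ macrophages, with DESeq2 adjusted p of at most 9.18e-12. In eYFP- macrophages it ran from 4.92 to 5.24 in the same genes, with DESeq2 adjusted p of at most 2.83e-22. The embryonic globins Hbb-y, Hbb-bh1 and Hba-x, which are not among the 41, had no count in monocytes and stayed at or below 1.24 TPM in macrophages.

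Across the 41 genes, 8 were lower in eYFP+ than in eYFP- macrophages and 0 higher (DESeq2, adjusted p under 0.05), where 1.88% of 21567 genes tested were called lower. They were Nfe2, Gypc, Klf1, Car1, Slc4a1, Alad, Rhd and Car2. The fold change was negative for 40 of the 41, with Epb41 at 0.01 (and below 0 with TMM or total-count size factors), while 9913 of all genes tested were negative. At an unadjusted p under 0.05 there were 30 members, against 1891 of all genes tested. The median log2 fold change was -1.42 for the members and 0.05 for all genes tested. In normalized counts 28 of the 41 had each eYFP+ library below each eYFP- library, as had 8.5% of all genes tested.

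The count of 8 depended on single libraries and on the tool. It was 24 without Ly6Clo replicate 2, and also 24 when only the 6 macrophage libraries entered DESeq2. It was 3 without eYFP+ replicate 2, 4 without eYFP+ replicate 3, 3 without eYFP- replicate 1 and 4 without eYFP- replicate 3. edgeR's quasi-likelihood test called 2, Gypc and Nfe2, and a correction for the GC content of transcripts left 4 (Slc4a1, Gypc, Nfe2 and Car1). Gypc and Nfe2 were called in each of the 31 alternatives run, and none of the 31 called a member higher in eYFP+ macrophages. Klf1 and Car1 were called in 24 of the 31, Slc4a1 in 23, Alad in 20, and Rhd and Car2 in 17 each.

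**Figure D2:**
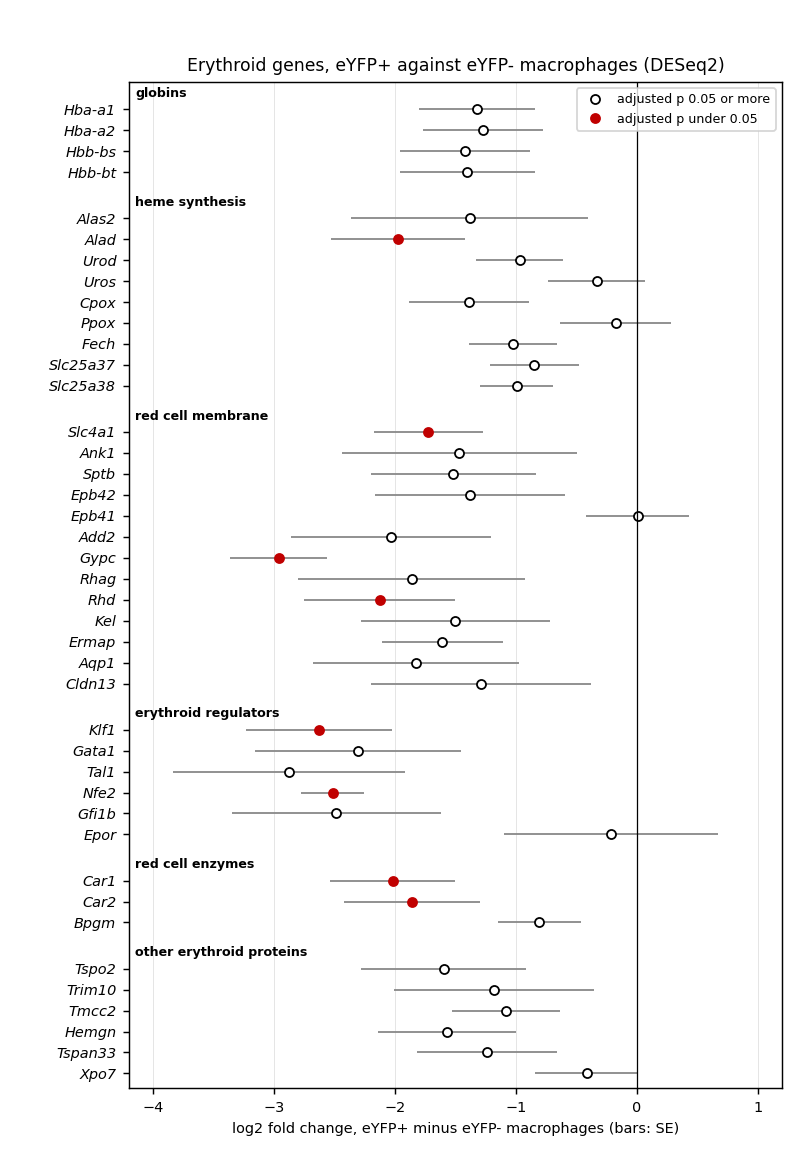
Log2 fold change of eYFP+ minus eYFP- macrophages for the 41 erythroid genes, grouped by role, with bars for the SE and filled red points for a DESeq2 adjusted p under 0.05. The 8 called genes lie between -2.96 and -1.72, the 4 globins between -1.42 and -1.27, and Epb41, Ppox and Epor lie nearest to 0.

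Of the roles, the regulators had the most negative median log2 fold change between the macrophage groups, -2.50 over 6 genes against -1.36 over the 4 globins, and 2 of the 6 were called lower (over all genes tested the median was 0.05 and 1.88% were called lower). Klf1 (ENSMUSG00000054191), the erythroid factor that binds CACCC boxes in globin promoters, was measured at 30, 17.8 and 31.7 TPM in eYFP+ and at 249, 91.8 and 150.2 TPM in eYFP- macrophages. In monocytes it lay at 2.24 to 10.1 TPM. The macrophage groups of Klf1 did not overlap, and the log2 fold change was -2.63 ± 0.61 (DESeq2 adjusted p 0.00187). Without eYFP- replicate 1, the library with the most Klf1, the DESeq2 adjusted p was 0.079, and after the GC correction it was 0.313.

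Nfe2 (ENSMUSG00000058794) encodes a subunit of a transcription factor of erythroid cells and megakaryocytes, and is also used by other myeloid cells. Its level was 14.7, 12.2 and 10.8 TPM in eYFP+ macrophages and 66.7, 72 and 84.2 TPM in eYFP- macrophages. It was 321, 303 and 267 TPM in Ly6Chi and 230.2, 244 and 207 TPM in Ly6Clo monocytes. The 4 groups did not overlap, with the lowest values in eYFP+ macrophages and the highest in Ly6Chi monocytes. Between the macrophage groups the log2 fold change was -2.51 ± 0.26, with the smallest adjusted p of the 41 (DESeq2, 4.3e-18).

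Gata1, the master regulator of the erythroid lineage, had a mean of 9.61 ± 3.66 TPM (SD, n = 3) in eYFP+ and 47.8 ± 20.7 TPM in eYFP- macrophages. Gfi1b, a repressor needed for erythroid and megakaryocyte development, had 8.44 ± 3.45 TPM and 47.8 ± 20 TPM, and Tal1, a partner of GATA1, had 0.423 ± 0.205 TPM and 3.07 ± 1.89 TPM. The log2 fold changes were -2.30 ± 0.85 for Gata1, -2.49 ± 0.87 for Gfi1b and -2.88 ± 0.96 for Tal1, with DESeq2 adjusted p from 0.101 to 0.191. None of these 3 was called over the 12 libraries, although their macrophage groups did not overlap. Without Ly6Clo replicate 2, in which all 3 had no count, their DESeq2 adjusted p was 0.000374, 9.22e-06 and 0.00496.

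Epor stood apart from the other regulators. It encodes the receptor for erythropoietin, the hormone that keeps erythroid progenitors alive, and is also known from macrophages of erythroblastic islands. Epor (ENSMUSG00000006235) was measured at 122, 204 and 189 TPM in eYFP+ macrophages and at 222, 173 and 201 TPM in eYFP- macrophages. In monocytes it lay at 0.551, 1.2 and 1.03 TPM (Ly6Chi) and at 5.25, 0 and 2.63 TPM (Ly6Clo). The macrophage groups thus overlapped, and all 6 of their libraries were far above each monocyte library. The log2 fold change between the macrophage groups was -0.21 ± 0.89 (DESeq2 adjusted p 1) and turned to 0.16 after the GC correction. Against monocytes it was 6.71 ± 0.77 in eYFP+ and 6.92 ± 0.77 in eYFP- macrophages (DESeq2 adjusted p 1.15e-16 and 1.3e-17), the highest of the 41 in both.

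To show what the promoters of these genes share, they were searched on both strands for the letters of the GATA motif (AGATAA or TGATAA), of a CACCC box (CCACACCC) and of the E-box (CAGNTG) that TAL1 binds. The search used the 250 bases before each start site in the RefSeq table for GRCm38.p6, another build than the GRCm39 of the counts. That table holds promoters of 31 of the 41 members, 38 in all, and of 3 of the 8 members called between the macrophage groups (Klf1, Rhd and Alad), so that Nfe2, Gypc, Car1, Slc4a1 and Car2 were not searched. A GATA motif was found in 18 of the 38 (47.4%), against 16.6% of all 32851 promoters. AGATAA was in 9 of them (23.7%, against 9.99%) and TGATAA in 10 (26.3%, against 7.94%), with Kel holding both. The letters CCACACCC were in 1 of the 38 (2.63%, Hbb-bs), against 3.2% of all promoters, and the E-box letters in 19 (50%, against 44.8%). Shorter or variant CACCC stretches, such as those left in lower case below, were not counted. A match is a description of the letters only, and no test was made of these shares.

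The promoters of 6 members are shown because their results differed, namely Klf1 and Rhd, which were called between the macrophage groups, Alas2, Hba-a1 and Hbb-bs, which were not, and Epor, whose groups overlapped. Each is from RefSeq (GRCm38.p6) and reads 5′ to 3′ on the gene's strand, with GATA motifs and the letters CCACACCC in capitals. A GATA motif of the other strand appears as its reverse complement.
Klf1 (chr8:84901732-84901981, plus strand): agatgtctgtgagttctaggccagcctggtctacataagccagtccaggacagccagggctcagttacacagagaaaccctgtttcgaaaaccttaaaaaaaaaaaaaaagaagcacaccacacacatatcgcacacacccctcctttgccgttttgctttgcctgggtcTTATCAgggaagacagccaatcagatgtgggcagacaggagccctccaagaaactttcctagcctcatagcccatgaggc
Rhd (chr4:134864286-134864535, plus strand): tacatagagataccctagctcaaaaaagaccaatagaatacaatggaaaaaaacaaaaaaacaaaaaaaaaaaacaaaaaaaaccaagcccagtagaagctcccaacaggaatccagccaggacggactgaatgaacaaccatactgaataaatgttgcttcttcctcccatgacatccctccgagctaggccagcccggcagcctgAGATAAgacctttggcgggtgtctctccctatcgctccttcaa
Alas2 (chrX:150547167-150547416, plus strand): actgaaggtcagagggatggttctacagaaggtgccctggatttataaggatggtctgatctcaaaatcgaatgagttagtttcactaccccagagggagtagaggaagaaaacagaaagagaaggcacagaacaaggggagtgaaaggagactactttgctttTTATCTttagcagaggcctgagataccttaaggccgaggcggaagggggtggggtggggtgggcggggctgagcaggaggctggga
Hba-a1 (chr11:32283422-32283671, plus strand): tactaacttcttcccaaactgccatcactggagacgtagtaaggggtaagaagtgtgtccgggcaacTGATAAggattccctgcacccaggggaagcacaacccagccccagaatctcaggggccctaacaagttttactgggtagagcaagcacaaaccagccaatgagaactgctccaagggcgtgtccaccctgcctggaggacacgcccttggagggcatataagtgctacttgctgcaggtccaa
Hbb-bs (chr7:103827929-103828178, minus strand): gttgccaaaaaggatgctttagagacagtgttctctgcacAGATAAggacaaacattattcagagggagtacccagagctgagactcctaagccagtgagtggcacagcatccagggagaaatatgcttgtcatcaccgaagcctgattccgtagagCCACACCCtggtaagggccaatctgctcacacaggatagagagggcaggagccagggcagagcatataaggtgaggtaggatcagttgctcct
Epor (chr9:21963577-21963826, minus strand): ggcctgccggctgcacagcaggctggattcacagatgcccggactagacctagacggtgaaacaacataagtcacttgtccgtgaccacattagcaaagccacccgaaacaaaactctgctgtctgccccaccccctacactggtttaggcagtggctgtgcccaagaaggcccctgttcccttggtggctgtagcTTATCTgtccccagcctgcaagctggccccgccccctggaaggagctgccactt
Each of the 6 holds 1 GATA motif, which begins 80 bases before the start site in Klf1, 43 in Rhd, 86 in Alas2, 183 in Hba-a1, 210 in Hbb-bs and 54 in Epor. This follows from the 6 shown, since 18 of the 31 member genes with a promoter in the table hold the motif, and Alad, also called between the macrophage groups, is not among them.

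Of the 13 membrane genes, 3 were lower in eYFP+ macrophages, against 1.88% of all genes tested, and the median log2 fold change was -1.61, against 0.05. Gypc (ENSMUSG00000090523), a glycophorin that ties the membrane skeleton to the bilayer and that other blood cells also make, was measured at 7.57, 6.98 and 7.1 TPM in eYFP+ and 67.5, 43.3 and 60 TPM in eYFP- macrophages. In monocytes it was measured at 30.8, 41.8 and 34.2 TPM (Ly6Chi) and at 14.8, 6.56 and 19 TPM (Ly6Clo). The eYFP+ values lay close to each other and below those of all other libraries except Ly6Clo replicate 2. Between the macrophage groups the log2 fold change was -2.96 ± 0.40 (DESeq2 adjusted p 2.57e-10), the most negative of the 41.

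Slc4a1 (ENSMUSG00000006574), the anion exchanger known as band 3, reached 31.8, 39.3 and 53.9 TPM in eYFP+ macrophages, 80.6, 179 and 166 TPM in eYFP- macrophages and 1.09 to 4.54 TPM in monocytes. The macrophage groups did not overlap, and the log2 fold change was -1.72 ± 0.45 (DESeq2 adjusted p 0.0106). The call of Slc4a1 was lost without eYFP+ replicate 1 or 2 or eYFP- replicate 2 or 3, with DESeq2 adjusted p from 0.0664 to 0.139. Rhd (ENSMUSG00000028825), a protein of the Rh blood group complex, reached 87, 15.4 and 26.2 TPM in eYFP+ macrophages, 293, 109.6 and 185 TPM in eYFP- macrophages and 2.55 to 4.46 TPM in monocytes. The library numbered 1 was the highest for Rhd in both macrophage groups, which did not overlap, and the log2 fold change was -2.13 ± 0.63 (DESeq2 adjusted p 0.0364). The call of Rhd was lost without eYFP+ replicate 2 or 3, eYFP- replicate 1 or 3 or any 1 Ly6Chi library, with DESeq2 adjusted p from 0.0529 to 0.451, and its log2 fold change was -3.33 without eYFP+ replicate 1.

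The other membrane genes encode the spectrin and ankyrin of the skeleton below the membrane (Sptb and Ank1), skeleton partners (Epb41, Epb42 and Add2), surface proteins (Rhag, Kel, Ermap and Cldn13) and the water channel Aqp1. None of these was called between the macrophage groups over the 12 libraries. Their log2 fold changes ran from -2.03 (Add2) to -1.29 (Cldn13), apart from Epb41, which lay near 0. Without eYFP+ replicate 1 and Ly6Clo replicate 2 they ran from -2.81 (Rhag) to -1.43 (Ank1), with Cldn13 at -2.18 and Epb41 at 0.29. Add2 was measured at 2.08, 2.13 and 1.93 TPM in eYFP+ and 10.4, 7.05 and 7.99 TPM in eYFP- macrophages, which do not overlap. Its DESeq2 adjusted p was 0.294 over the 12 libraries and 0.00702 without Ly6Clo replicate 2, in which it had no count. Sptb, Kel and Ermap were also called lower without that library, with DESeq2 adjusted p of 0.00213, 0.0417 and 0.0139. With only the 6 macrophage libraries Sptb, Epb42, Add2, Rhag, Kel, Ermap and Aqp1 were called lower. With the replicate number as a block, Ermap was called lower (DESeq2 adjusted p 0.0134). Epb41, which many cell types use, had a mean of 28.9 ± 13.5 TPM in eYFP+ and 29.5 ± 13.6 TPM in eYFP- macrophages (SD, n = 3).

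The 9 genes of heme synthesis had the median log2 fold change nearest to 0 of the roles, -0.99, with 1 called lower, against 0.05 and 1.88% for all genes tested. Alad (ENSMUSG00000028393), the enzyme of the step after aminolevulinate is made, was measured at 70.1, 35.9 and 44.5 TPM in eYFP+ and at 322, 101 and 173 TPM in eYFP- macrophages. The macrophage groups did not overlap, and the log2 fold change was -1.97 ± 0.55 (DESeq2 adjusted p 0.0223). The call was lost without eYFP+ replicate 2 or 3 or eYFP- replicate 1 or 3, with DESeq2 adjusted p from 0.0845 to 0.427, and the log2 fold change was -1.33 without eYFP- replicate 1, the library with the most Alad. Ppox, which oxidizes protoporphyrinogen and serves all cells that make heme, lay at 161, 143 and 156 TPM in eYFP+ and 183, 171 and 178 TPM in eYFP- macrophages. Its values were close in both groups, with a log2 fold change of -0.18 ± 0.46 (DESeq2 adjusted p 1) that turned to 0.0455 after the GC correction.

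Alas2, the erythroid form of the enzyme that starts the pathway, stood at 77.3, 74.4 and 84.8 TPM in eYFP+ macrophages and at 200.4, 185 and 243 TPM in eYFP- macrophages. In monocytes it ranged from 0 in Ly6Clo replicate 2 to 10.4 TPM in Ly6Clo replicate 1. The macrophage groups did not overlap, but the log2 fold change of -1.38 ± 0.98 had a DESeq2 adjusted p of 0.864 over the 12 libraries, against 0.000396 without Ly6Clo replicate 2. Urod, Uros, Cpox and Fech of the pathway and the mitochondrial carriers Slc25a37 and Slc25a38 had log2 fold changes from -1.39 (Cpox) to -0.33 (Uros), with none called over the 12 libraries. Without Ly6Clo replicate 2, Cpox, Fech and Slc25a38 were called lower (DESeq2 adjusted p 0.0247, 0.0136 and 0.00238), and with only the 6 macrophage libraries Alas2 and Cpox were. With the replicate number as a block, Slc25a38 was called lower (DESeq2 adjusted p 0.048).

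Of the red cell enzymes, both carbonic anhydrases were lower in eYFP+ macrophages. Car2 (ENSMUSG00000027562), which other cells such as osteoclasts also make, had 494, 149 and 216 TPM in eYFP+ and 1536, 631 and 1055 TPM in eYFP- macrophages, against 15.7 to 47.8 TPM in monocytes. Car1 (ENSMUSG00000027556), a form typical of red cells, had 50.3, 20.4 and 29.3 TPM in eYFP+ and 217, 85.9 and 109.4 TPM in eYFP- macrophages, against 2.14 to 6.46 TPM in monocytes. The macrophage groups did not overlap in either gene. The log2 fold change was -1.86 ± 0.56 for Car2 and -2.02 ± 0.52 for Car1 (DESeq2 adjusted p 0.0464 and 0.00838). The call of Car1 was lost without eYFP+ replicate 2 or 3 or eYFP- replicate 1, with DESeq2 adjusted p from 0.0934 to 0.227, and its log2 fold change was -1.42 without eYFP- replicate 1. That of Car2 was lost without eYFP+ replicate 2 or 3, eYFP- replicate 1 or 3, Ly6Chi replicate 2 or 3 or Ly6Clo replicate 3, with DESeq2 adjusted p from 0.0643 to 0.489, and its log2 fold change was -2.64 without eYFP+ replicate 1. Bpgm, which makes the bisphosphoglycerate that lowers the oxygen affinity of hemoglobin, had 54.6 ± 11.1 TPM in eYFP+ and 98.1 ± 20 TPM in eYFP- macrophages (SD, n = 3) and was not called (DESeq2 adjusted p 0.351).

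None of the 6 other erythroid proteins was called between the macrophage groups over the 12 libraries, although 4 of 6 had an unadjusted p under 0.05 in DESeq2. Tmcc2, a transmembrane protein and the most abundant of them in macrophages, had 48.4, 64.8 and 72.3 TPM in eYFP+ and 74.9, 153 and 176 TPM in eYFP- libraries, with a log2 fold change of -1.08 ± 0.45 (DESeq2 adjusted p 0.309). The other 5 were Tspo2, a relative of the mitochondrial translocator protein, the tripartite motif protein Trim10, the nuclear protein Hemgn, the tetraspanin Tspan33 and the nuclear transport factor Xpo7. Their log2 fold changes ran from -1.60 for Tspo2 to -0.41 for Xpo7, and for Xpo7 the macrophage groups overlapped. Without Ly6Clo replicate 2, Trim10 and Hemgn were called lower (DESeq2 adjusted p 0.0289 and 0.00548), and with only the 6 macrophage libraries Tspo2 and Hemgn were.

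Compared with monocytes, most of the 41 genes were higher in macrophages of both origins. In eYFP+ macrophages 32 were higher and 3 lower, where 16.5% and 12.5% of 22385 genes tested were. In eYFP- macrophages 38 were higher and 1 lower, where 17.7% and 12.1% of 21567 genes tested were. The 20 members listed as restricted to erythroid cells were called higher in both. The median log2 fold change of the 41 was 3.29 in eYFP+ and 5.01 in eYFP- macrophages, against 0.12 and 0.07 for all genes tested. Both comparisons use the same 6 monocyte libraries.

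The genes that did not follow were among those that other cells also use. Nfe2 was lower in both macrophage groups, by a log2 fold change of -4.44 ± 0.23 in eYFP+ and -1.92 ± 0.22 in eYFP- macrophages (DESeq2 adjusted p 1.54e-82 and 3.21e-16). Gypc was lower than in monocytes in eYFP+ macrophages (-1.67 ± 0.35, DESeq2 adjusted p 1.53e-05) and higher in eYFP- macrophages (1.29 ± 0.35, adjusted p 0.00117). Slc25a38, a mitochondrial glycine carrier, was lower in eYFP+ macrophages (-0.82 ± 0.26, DESeq2 adjusted p 0.00774) and was not called in eYFP- macrophages. Epb41 was called in neither, and Urod, Cpox, Slc25a37, Tal1 and Tspan33 were not called in eYFP+ macrophages.

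**Figure D3:**
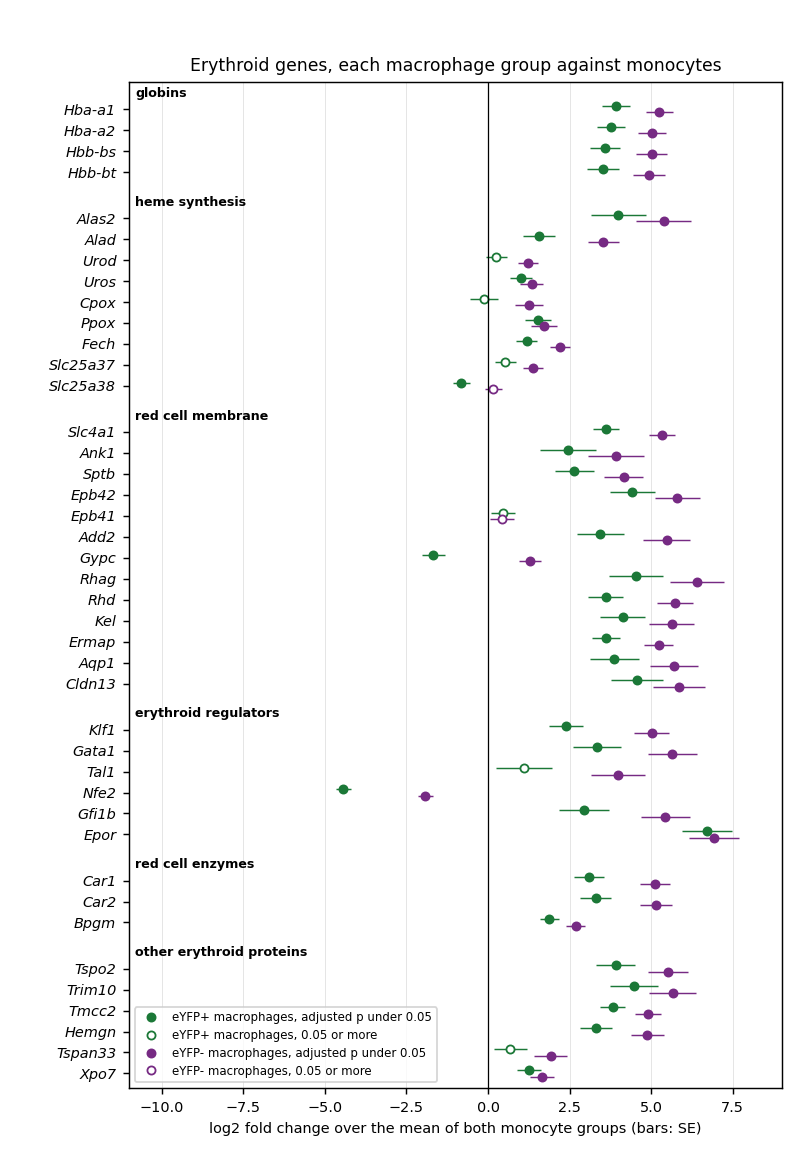
Log2 fold change of eYFP+ (green) and of eYFP- (purple) macrophages over the mean of both monocyte groups for the 41 erythroid genes, with bars for the SE and filled points for a DESeq2 adjusted p under 0.05. Most genes lie above 0 in both, Epor has the highest values at 6.71 and 6.92, and Nfe2 the lowest at -4.44 and -1.92.

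Between the monocyte groups 1 of the 41 members, Gypc, was higher in Ly6Chi, where 3.66% of 21567 genes tested were called higher, and 0 were lower, where 4.97% were. Its log2 fold change (Ly6Chi minus Ly6Clo) was 1.42 ± 0.40 (DESeq2 adjusted p 0.00796), while edgeR called 0 of the 41. An unadjusted p under 0.05 in DESeq2 was reached by 6 of the 41, against 4463 of the 21567 genes tested. The globins had log2 fold changes from -0.89 to -0.54, with DESeq2 adjusted p from 0.276 to 0.647. There were 6 calls without Ly6Clo replicate 2, 2 higher and 4 lower, and 7 without Ly6Clo replicate 1, all higher. There were 2 without Ly6Clo replicate 3, 2 without eYFP+ replicate 1 and 0 without Ly6Chi replicate 2.

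The erythroid genes did not keep 1 proportion to each other in the macrophage libraries, as their levels per 1000 TPM of summed globins showed (the genes for this description were chosen after their values were seen, and no test was made). Klf1 stood at 2.12, 2.06 and 3.09 per 1000 globin TPM in eYFP+ and at 7.26, 4.24 and 4.88 in eYFP- macrophages. Gata1 stood at 0.869, 0.629 and 1.08 in eYFP+ and at 2.06, 1.37 and 1.41 in eYFP- macrophages. Both regulators were higher per globin transcript in each eYFP- library than in each eYFP+ library. Rhd, at 6.15, 1.79 and 2.55 in eYFP+ and 8.56, 5.06 and 6.03 in eYFP- macrophages, overlapped, as did Trim10 and Hemgn. Car1 nearly met, at 3.55 in both eYFP+ replicate 1 and eYFP- replicate 3.

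Alas2 per 1000 globin TPM was 5.46, 8.61 and 8.25 in eYFP+ and 5.85, 8.55 and 7.89 in eYFP- macrophages. Slc4a1 was at 2.25, 4.55 and 5.24 in eYFP+ and at 2.36, 8.27 and 5.4 in eYFP- macrophages. Both of these overlapped between the groups, and were lowest in the library numbered 1 of each group. Epor ran the other way, with 8.6, 23.6 and 18.4 per 1000 globin TPM in eYFP+ and 6.48, 7.98 and 6.53 in eYFP- macrophages. The alpha chains summed to 1.89, 1.04 and 1.15 times the beta chains in eYFP+ and to 1.62, 1.06 and 1.17 times in eYFP- libraries. The library numbered 1 had the highest ratio in both groups.

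**Figure D4:**
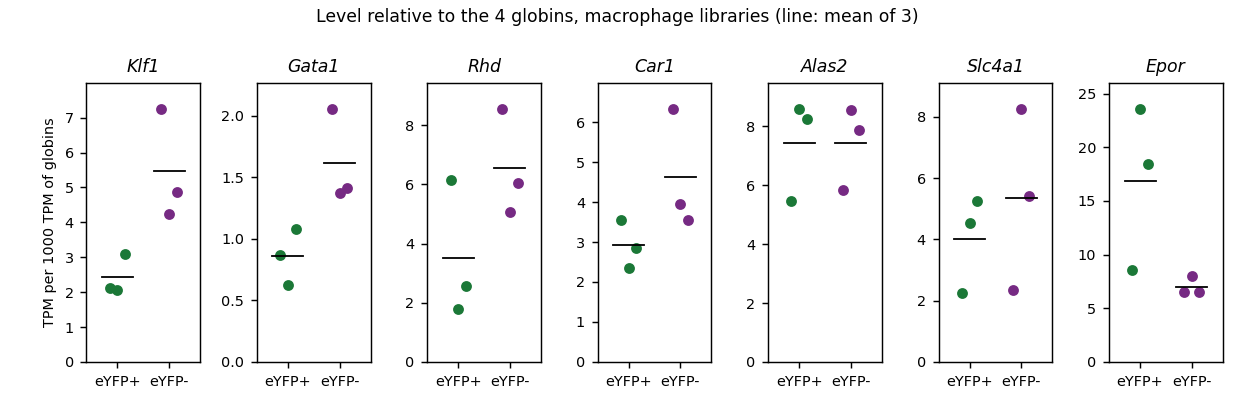
TPM of 7 erythroid genes per 1000 TPM of the 4 summed globins in each macrophage library (points), with a line at the mean of 3 libraries and axes from 0 that differ between genes. Klf1 and Gata1 do not overlap between eYFP+ and eYFP- macrophages, and Car1 nearly meets. Rhd, Alas2 and Slc4a1 overlap, and Epor is higher in each eYFP+ library than in each eYFP- library.

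A further list of 31 erythroid genes outside the 41 had mostly lower values in eYFP+ than in eYFP- macrophages. Of the 31, 27 had a negative sign and 27 had an adjusted p, of which 8 were called lower and 0 higher by DESeq2, where 1.88% of 21567 genes tested were called lower and 9913 were negative. The median log2 fold change was -1.43, without 1 gene that had no count. The genes with the lowest adjusted p were Kcnn4, a potassium channel of red cells and other cells, with a log2 fold change of -2.21 ± 0.39 (DESeq2 adjusted p 9.46e-06), and Isg20, a ribonuclease, with -1.82 ± 0.34 (adjusted p 2.29e-05). Both were also present in monocytes. Mean TPM of Isg20 was 67 in Ly6Chi and 35.9 in Ly6Clo monocytes, against 28.6 in eYFP+ and 101.7 in eYFP- macrophages. For Kcnn4 it was 6.35 and 27.6 in these monocytes, against 15.1 and 70.8. The list gave 13 calls without Ly6Clo replicate 2, 4 without eYFP+ replicate 2 and 4 without eYFP+ replicate 3. There were 3 without eYFP- replicate 1, 3 without eYFP- replicate 3 and 5 without Ly6Chi replicate 1.

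Of the marker lists for other cells that the macrophage gate could hold, those of proliferation, progenitors and neutrophils had the most genes called lower in eYFP+ macrophages. Of 18 proliferation genes 8 were called lower by DESeq2, against 1.88% of all genes tested, with a summed level of 269.9 to 422 TPM in eYFP+ and 746 to 1221 TPM in eYFP- libraries. Of 10 stem and progenitor genes 6 were lower, with sums of 8.66 to 20.8 TPM in eYFP+ and 85.4 to 189 TPM in eYFP- libraries. Of 10 neutrophil genes 4 were lower (Mpo, Ctsg, Camp and Ngp), with sums of 121 to 210.1 TPM in eYFP+ libraries and of 230.3, 2632 and 823 TPM in eYFP- libraries. Camp and Ngp overlapped between the groups and were high in eYFP- replicate 2 alone, at 264 and 313 TPM, against at most 10.2 and 10.1 TPM in the other 5 macrophage libraries. No gene of these 3 lists was at 0 in all libraries of a macrophage group. The library with the most neutrophil transcripts, eYFP- replicate 2, had the lowest erythroid sum of its group, and without it 11 of the 41 were called.

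Of 11 T and NK cell genes 2 were lower in eYFP+ macrophages (Lck and Klrd1), with sums of 5.78 to 19.3 TPM in eYFP+ and 29.5 to 76 TPM in eYFP- libraries. Of 14 megakaryocyte and platelet genes 1 was lower (Itga2b), with sums of 125 to 204 TPM in eYFP+ and 150.1 to 208 TPM in eYFP- libraries, and Gp1bb was at 0 in eYFP+. Most of these sums came from Pf4, which lay at 118 to 198 TPM in eYFP+ and 110.4 to 161 TPM in eYFP- libraries, whereas 12 of the 14 genes had a negative sign. Of 8 monocyte genes 2 were lower, among them Ccr2, with sums of 51.1 to 72.4 TPM in eYFP+ and 51.5 to 129 TPM in eYFP- libraries. Of 10 B cell genes 0 were called by DESeq2 or edgeR and 2 had an unadjusted p under 0.05 in DESeq2, with sums of 518 to 734 TPM in eYFP+ and 498 to 611 TPM in eYFP- libraries, most of it from Cd79b, while Ms4a1 lay at or below 0.951 TPM. The part of these cell types in the erythroid differences was not tested, and in bulk libraries fewer cells of a type and less RNA per cell cannot be told apart.

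A list held 17 genes by which island macrophages hold erythroblasts and recycle heme, such as Vcam1 and Hmox1. Of these, 0 were called between the macrophage groups by DESeq2 or edgeR, where DESeq2 called 2.04% of 21567 genes tested in either direction. An unadjusted p under 0.05 in DESeq2 was reached by 0 of the 17, against 1891 of all genes tested. VCAM1 was part of the gate for both macrophage groups. The summed level of the 17 genes was 38916 to 40559 TPM in eYFP+ and 27458 to 33495 TPM in eYFP- libraries, so that each eYFP+ library lay above each eYFP- library, the reverse of the erythroid sum. In monocytes it was 972 to 1049 TPM (Ly6Chi) and 1003 to 1560.0 TPM (Ly6Clo).

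**Figure D5:**
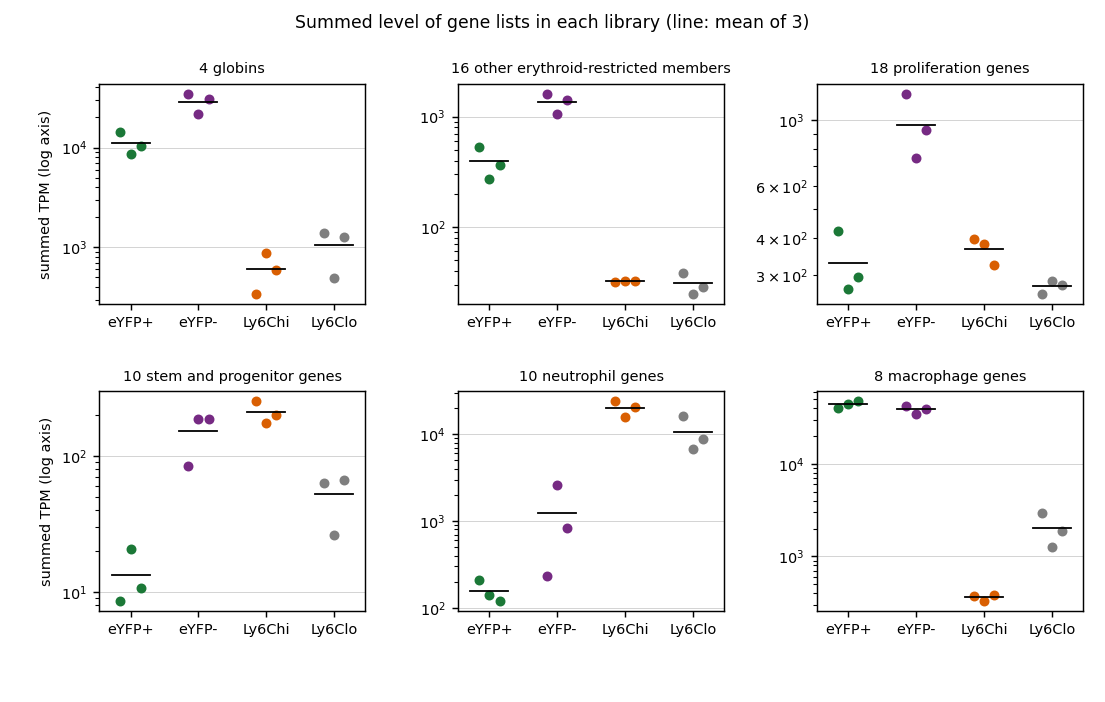
Summed TPM (log axis) of the 4 globins, the 16 other members listed as erythroid-restricted and 4 marker lists, with 1 point per library and a line at the mean of 3. The erythroid, proliferation and progenitor sums are lower in each eYFP+ library than in each eYFP- library, and the neutrophil genes reach 2632 TPM in eYFP- replicate 2.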

How the data were processed

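RNA of 12 libraries (4 groups of 3) was sequenced as amplified full-length cDNA without molecular identifiers. According to the study's methods and the submitters' notes, the authors trimmed and corrected the reads, removed ribosomal RNA, aligned with segemehl to GRCm39 and counted unambiguous pairs per Ensembl gene with featureCounts; use of strand is not given in the sources used here. The authors deposited raw counts per gene and, in a second table, TPM values per gene. A table of variance-stabilised values was not used.

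Counts were tested with DESeq2 1.42.0 (R 4.3.3, Wald test, median-of-ratios size factors, group as the only term, 12 libraries in 1 fit), with Benjamini-Hochberg adjustment over all genes and a threshold of 0.05. Monocytes means the mean of both monocyte groups. edgeR 4.0.16 and limma 3.58.1 (log2 of TPM plus 1 or 0.1) were alternatives, beside other size factors, filters, a replicate block, GC corrections and leaving out libraries. The code was checked on simulated data.

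The members and lists were chosen with earlier results of these data known. Members called between the macrophage groups, the globins and the most abundant member of each role are given per library; in other lists at most 4 genes, those with the lowest adjusted p or the highest TPM, are named, and the embryonic globins, Gp1bb and the per-library values of Alas2 and Add2 were added after their values were seen. Some genes of these other lists are not reported here by name.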

Additional observations from a re-analysis of the deposited data

How the results depend on the processing

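Both comparisons with monocytes kept their counts of calls within 1.5 times in each alternative run, with 33 to 35 members called for eYFP+ and 38 to 39 for eYFP- macrophages when 1 library was left out. The count of 8 members between the macrophage groups was not stable. It was 2 with edgeR, 2 with limma on log2(TPM + 0.1), 14 with limma on log2(TPM + 1), 4 after the GC correction, 24 with only the macrophage libraries, 29 without eYFP+ replicate 1 and Ly6Clo replicate 2, and 3 to 24 when 1 library was left out. Among alternatives chosen after seeing the data, it was 4 after a GC and length correction, 27 without Ly6Clo replicate 2 and eYFP- replicate 2, and 3 with edgeR on the 6 macrophage libraries. The calls were lower in eYFP+ macrophages in each of these. The pair eYFP+ replicate 1 and Ly6Clo replicate 2 was left out as poor in GC-rich transcripts, for which no values are given here.

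The further erythroid list gave 8 calls, and 2 with edgeR, 4 without independent filtering, 13 with only the macrophage libraries, 1 with limma on log2(TPM + 0.1), 4 after the GC correction, 15 without eYFP+ replicate 1 and Ly6Clo replicate 2, 3 to 13 when 1 library was left out, and, in alternatives chosen after seeing the data, 4, 15 and 3 in the order given above. The single call between monocyte groups became 0 with edgeR and with limma on log2(TPM + 0.1), 2 with total-count size factors, a minimum of 10 counts in 3 libraries or the GC and length correction, 7 without eYFP+ replicate 1 and Ly6Clo replicate 2, 6 without Ly6Clo replicate 2 and eYFP- replicate 2, and 0 to 7 when 1 library was left out. The cause was not tested.

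Over all named members and alternatives between the macrophage groups, 61 values lost their call and 103 gained one, and against monocytes 21 (eYFP+) and 10 (eYFP-) lost theirs. The sign of members near 0 turned between the macrophage groups. Epb41 (0.01) became -0.0126 with edgeR, -0.019 with TMM, -0.10 with total-count size factors, -0.0418 and -0.0446 with limma, -0.0491 and -0.26 after the GC and the GC and length corrections, -0.011 with edgeR on the 6 macrophage libraries, and -0.26 to 0.30 when 1 library was left out. After the GC and the GC and length corrections Epor became 0.16 and 0.25, and Ppox 0.0455 and 0.0331.

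With the replicate block, 10 members were called between the macrophage groups, 10 also with a minimum of 10 counts, and 2 with edgeR; the further list gave 11, 10 and 1, the monocyte comparison 2, 2 and 0, and Epb41 -0.0125, -0.0143 and -0.0335. The block added Slc25a38 and Ermap to the 8. Same-numbered macrophage libraries deviated together with r of 0.148, 0.0675 and 0.0445 over the 2000 most variable genes, and of 0.544, 0.5 and 0.168 over the 41 members (numbers 1, 2 and 3). The numbers were not taken to pair the libraries, since r was not above 0.1 for each number over the 2000 genes, although it was over the members. By either set 5 of the 6 libraries correlated best with their own number, and eYFP+ replicate 3 with eYFP- replicate 2.

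The summed TPM was 1495 in eYFP+ macrophages, 3962 in eYFP- macrophages, 682 in Ly6Chi and 602 in Ly6Clo monocytes without the globins. Over the restricted members it was 633 in Ly6Chi and 1075 in Ly6Clo monocytes.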
